A study of Homo sapiens with 20 samples.

Results

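The comparison described here sets wild-type SUM159PT cells grown as tumorspheres (3D) against the same cells grown attached to plastic (2D). SUM159PT is a triple-negative breast cancer cell line of mesenchymal character. The libraries were chosen by their labelled titles, which put 3 libraries in 3D and 3 in 2D, so 6 of the 20 libraries of the series form the comparison. All 6 carry the unedited genotype (wt). The other libraries come from 2 pools edited at NNMT and from wt cells held in tumorsphere medium. Except where stated, they entered through the filter on low counts, the scaling, the shared estimate of spread and the level required of named genes.

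The adherent cells were harvested at 80% confluency. Their medium, Ham's F12, held fetal calf serum at 5%, insulin at 5 ug/mL and hydrocortisone at 1 ug/mL, and their RNA was taken with the RNeasy Plus Mini kit. The tumorspheres grew for 6 days in plates that cells do not attach to (ultra-low attachment), were dissociated with trypsin, and grew for another 6 days as secondary spheres. They were kept in DMEM:F12 with B27 supplement, 20 ng/mL EGF and 20 ng/mL basic FGF, without the serum and hydrocortisone of the 2D medium, and their RNA was taken with the RNeasy Micro kit. Attachment, medium, time in culture and RNA kit therefore cannot be told apart in 3D against 2D. A further group, adherent wt cells switched at 50% confluency to the tumorsphere medium (n = 2), shares the medium but not the format of the spheres. Its values are set beside those of the comparison, and its own test against 3D uses the same 3D libraries. All cultures are of 1 cell line. The labels do not tell whether the replicates are separate cultures, so the p-values rest on a spread among libraries that may be technical.

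A tumorsphere is a cluster that grows from single cells in suspension without serum, a format widely used to enrich breast cancer cells with stem and progenitor traits. Cells that cannot attach lose the pull on integrins and actin stress fibres that a stiff plastic surface gives, and within a sphere they meet other cells and the matrix that they deposit themselves. EGF and basic FGF in the medium signal through receptor tyrosine kinases to ERK, while serum brings lipids, matrix proteins and many growth factors.

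Read totals were 27432256 to 27992072 in 2D and 29824678 to 32016875 in 3D, and ribosomal RNA took 2.99% to 6.85% and 5.27% to 8.46% of them. Among markers of the line, vimentin (VIM) lay at 4846, 5023 and 5329 CPM in 2D A, B and C and at 3985, 3923 and 5526 in 3D, and EPCAM, ESR1 and PGR had at most 10 reads in any of these libraries. CPM are reads per 1000000 reads after TMM scaling, which uses a trimmed mean of library ratios. The leukocyte gene CD3E had no read, and PTPRC stayed between 0.988 and 2.23 CPM. The sum of the 8 leukocyte markers was 24.4 to 32.0 CPM in 2D and 21.3 to 31.0 in 3D. Most of it was the macrophage and lysosome gene CD68, which fell (22.2 to 30.7 CPM in 2D and 15.7 to 17.8 in 3D), while CD74 (3.02 to 9.62 CPM in 3D) and ITGAM (at most 0.836) rose from at most 0.118 CPM. Among the endothelial genes CLDN5 had no read and CDH5 at most 3. The endothelial sum was 7.56 to 10.8 CPM in 2D and 50.7 to 73.3 in 3D, where almost all of it was PECAM1 (50.4, 54.6 and 73.1), an adhesion molecule also found on leukocytes and platelets.

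Library C of the 3D group stood apart before any gene was compared. Its median absolute log2 difference was 0.26 to A and 0.28 to B, against 0.11 between A and B. Relative to the mean of A and B, 438 genes were at least 2-fold higher and 800 at least 2-fold lower in C. Its cell division genes were lower (list medians of -0.80 for DNA replication and -0.84 for mitosis on the log2 scale), as were those of cholesterol synthesis (-0.63), while cytosolic ribosomal proteins (0.55), complement (0.51), interferon-stimulated genes (0.48) and HLA genes (0.46) were higher. Ribosomal RNA was also highest in C, at 8.46%. The part of RNA quality or of sphere state in this was not tested. All 3 spheres are used below, and values without C are given where a call of a named gene changes or a printed count or median moves by over 1.5 times.

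**Figure D1:**
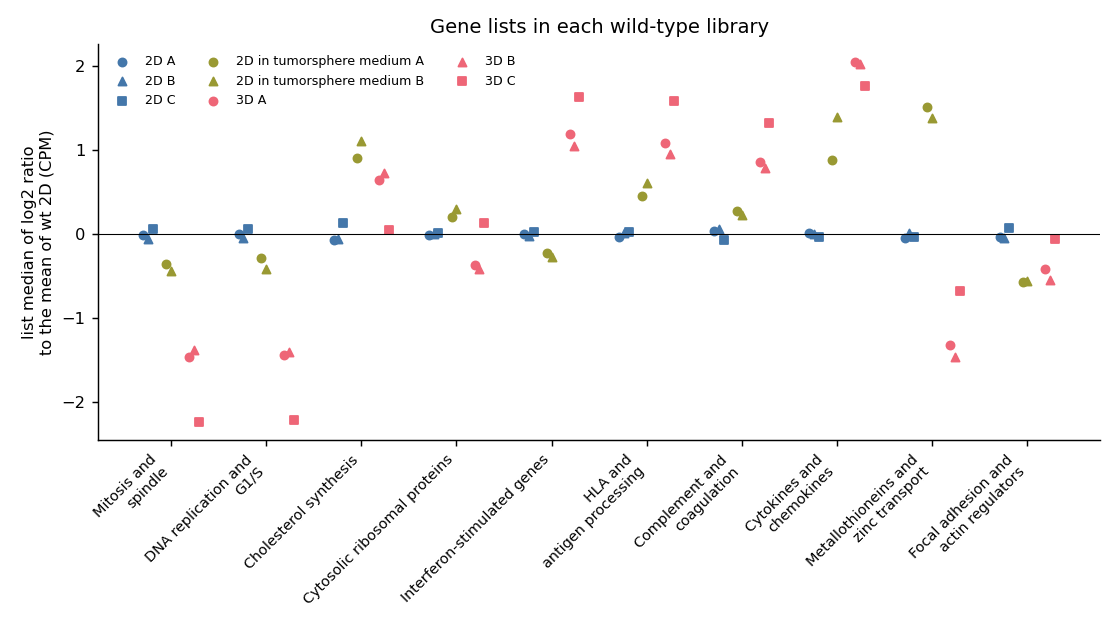
Median over the tested members of 10 gene lists of the log2 ratio of each wild-type library to the mean of the 2D libraries (CPM with 0.1 added), one symbol per library. Library 3D C lies lowest for both cell division lists (-2.23 and -2.21) and highest for the complement list (1.32), while 3D A and B lie together.

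Of 16323 genes tested with edgeR's quasi-likelihood test, 5433 (33.3%) were higher in 3D and 4965 (30.4%) lower at an adjusted p under 0.05, together 63.7%. The shares of all genes that passed are the background for each list below, whose members share their samples. Large changes were mostly rises: 3142 genes (19.2%) rose and 1535 (9.40%) fell at least 2-fold, 1084 rose and 196 fell at least 8-fold, and 180 rose and 19 fell at least 128-fold. The median log2 fold change over all genes tested was 0.04.

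**Figure D2:**
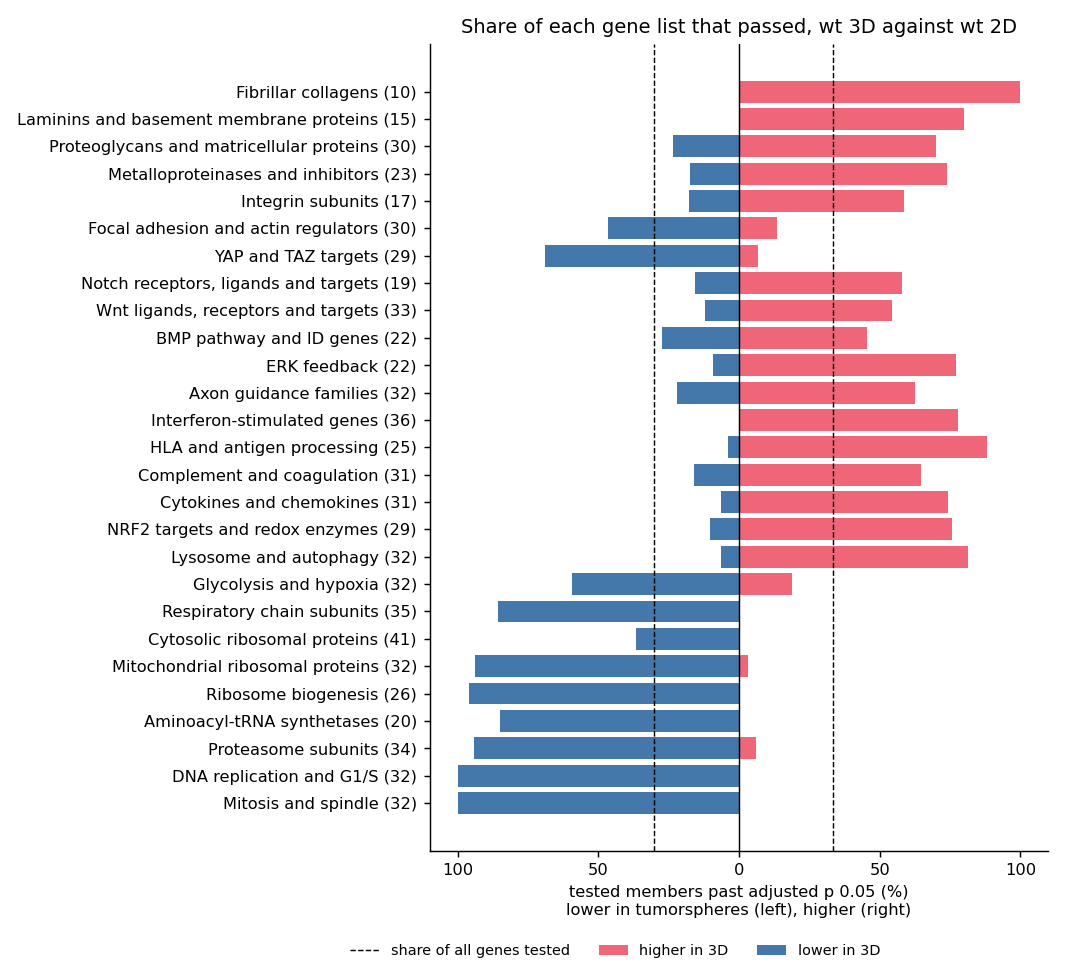
Percentage of the tested members of 27 gene lists that were higher (right) or lower (left) in 3D at an adjusted p under 0.05, with the number tested in parentheses. Dashed lines mark the shares of all genes tested, 33.3% higher and 30.4% lower. The fibrillar collagens reach 100% on the right and both cell division lists 100% on the left.

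Some genes went from almost no reads to high levels. By a fixed rule (at most 3 reads summed over 1 culture and at least 1 CPM in every library of the other), 109 genes were near-silent in 2D and present in 3D, of which 94 encode proteins, and 10 were near-silent in 3D and present in 2D. MUC5AC, a gel-forming mucin of airway and stomach epithelium (chromosome 11, 1157953 to 1201138, hg38), had 2, 0 and 0 reads in 2D and 11720, 10008 and 2674 in 3D A, B and C, or 379, 336 and 93.2 CPM. Its neighbour MUC5B (1223066 to 1262172) had no read in 2D and 48.3, 41.9 and 22.7 CPM in 3D, at least 999-fold higher against a limit of 3 reads over the 2D group. Both mucins were lowest in library C, and both groups were fully separate, as for 35.1% of all genes tested in this direction. The other secreted mucins of this cluster were barely present: MUC2 reached 0.523 to 1.03 CPM and MUC6 0.279 to 0.907 CPM in 3D, although both passed (adjusted p = 1.8e-05 and 2.1e-04 with edgeR). The nearby gene TOLLIP, an adaptor of Toll-like receptor signalling, rose by 0.73 ± 0.08 (log2 fold change ± SE).

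PADI4, an enzyme that turns arginine of histones into citrulline, is known from neutrophils. It had 2, 1 and 0 reads in 2D and 300, 292 and 96.4 CPM in 3D, and no read in either adherent library in tumorsphere medium. Its relative PADI3 rose from 0.769, 0.596 and 0.471 CPM to 15.1, 12.8 and 13.6. CLCA2, a self-cleaving protein of basal epithelium, had 3 reads over the 2D group and 146, 159 and 116 CPM in 3D. The R-spondin receptor LGR6, a marker of skin and mammary stem cells, had 4 reads in 2D and 125, 119 and 146 CPM in 3D. MUC5AC, PADI4, CLCA2 and LGR6 were at 93.2 CPM or more in every 3D library. TMEM119 and TREM2, both used as microglia and macrophage markers, had 3 reads and 1 read over the 2D group. In 3D TMEM119 stood at 125, 116 and 77.8 CPM and TREM2 at 23.9, 20.8 and 29.8 CPM. Among the leukocyte markers CD68 fell while CD74 and ITGAM rose, as given above, and CD14 had at most 0.348 CPM. A part of other cells in these levels was not tested.

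Others of this set were PKNOX2, a homeobox factor (47.9, 46.0 and 41.5 CPM in 3D), SPARCL1, a matricellular protein (24.7, 28.5 and 21.7), and the receptor SSTR3 for somatostatin (9.33, 8.33 and 31.2). The glucuronosyltransferase UGT1A6, which conjugates phenols and drugs, had no read in 2D and 22.2, 24.02 and 23.1 CPM in 3D (at least 613-fold higher). The UGT1A genes of chromosome 2 share their last exons, so which of the 9 near-silent members of that cluster was transcribed cannot be read from these counts. All 9 are counted among the 109 genes and the 94 that encode proteins, although their reads are largely shared. The pseudogenes KRT17P1 and APOC1P1 were in the set as well and may take reads of KRT17 and APOC1. Of the 109 genes, 107 were also below 1 CPM in both adherent libraries in tumorsphere medium. The 2 that were not are the alarmin IL33 (20.5, 22.9 and 21.3 CPM in 3D, 12.2 and 11.8 in that medium) and the keratin KRT23. This limit of 1 CPM is looser than that of 3 reads used for 2D, and some genes below it were above their 2D level. LINC01050 reached 0.918 and 0.982 CPM in that medium, against 1.10, 1.41 and 1.15 in 3D, and CIITA 0.551 and 0.432 CPM.

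The reverse set was small and its levels low. TFCP2L1, a factor of naive stem cells, had 7.14, 7.15 and 3.45 CPM in 2D and at most 2 reads per library in 3D, and the VEGF receptor KDR had 4.83, 3.76 and 8.83 CPM in 2D. ACAN, the cartilage proteoglycan aggrecan, was at 2.56, 2.79 and 1.73 CPM in 2D with no read in 3D. TDRD9 (at least 36.4-fold lower) and the hair keratin KRT34 (at least 49.2-fold lower) had no read in 3D either. The prolactin receptor PRLR fell from 1.65, 1.79 and 1.41 CPM to 3 reads over the 3D group. Just outside this rule HHIP, which binds and blocks Hedgehog ligands, fell from 31.3, 31.5 and 21.7 CPM to 0.065, 0.134 and 0.

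**Figure D3:**
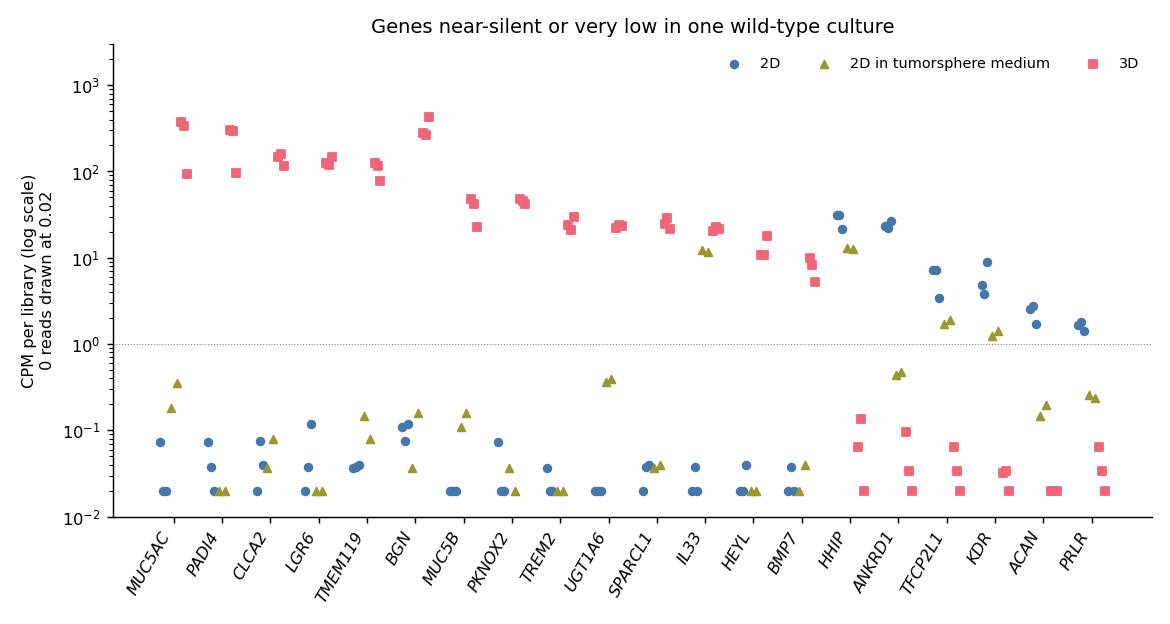
CPM on a log scale for 20 genes in each wild-type library: 2D (circles), adherent in tumorsphere medium (triangles) and 3D (squares), with 0 reads drawn at 0.02. The genes on the left, MUC5AC to BMP7, lie above 5 CPM in 3D and below 0.2 in 2D, and IL33 alone among them is also above 1 CPM in adherent cells in tumorsphere medium.

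Genes of moderate or high level were those with a mean log2 CPM over all 20 libraries from 2 upward. Outside the gene groups below, those with the largest rises included several regulators of signalling and matrix. GPRC5C, an orphan receptor that responds to retinoic acid, rose from 0.220, 0.373 and 0.471 CPM to 108, 96.0 and 108. SNED1, a matrix glycoprotein, rose from 1.90, 2.76 and 2.35 CPM to 745, 718 and 589. ARRB1, the adaptor beta-arrestin 1, rose from 0.988, 0.820 and 0.589 CPM to 105, 105 and 166. These 3 genes were below 3 CPM in every 2D library. SH3PXD2A, a scaffold of invadopodia, rose by 6.73 ± 0.28, the chondroitin sulfotransferase CHST15 by 6.08 ± 0.41, the haematopoietic factor NFE2 by 6.52 ± 0.60 and TDO2, which degrades tryptophan, by 5.96 ± 0.27. TDO2 stood at 126, 143 and 138 CPM in 3D against 2.89, 2.57 and 1.02 in 2D.

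Among the largest falls were enzymes and membrane scaffolds. Monoamine oxidase MAOA fell from 54.8, 47.6 and 32.4 CPM to 1.61, 1.48 and 3.69, and GCNT1, which branches O-glycans, from 59.9, 58.5 and 68.6 CPM to 2.29, 2.85 and 3.52. The cannabinoid receptor CNR1 changed by -3.84 ± 0.25 on the log2 scale, the sarcomere protein MYPN by -3.63 ± 0.26 and the junction protein PLEKHA7 by -4.11 ± 0.41. Others were ZNF385B (-4.56 ± 0.23), EPB41L3 (-4.01 ± 0.19), MB21D2 (-3.86 ± 0.25), GALNT15 (-3.72 ± 0.57), PROSER2 (-3.66 ± 0.14), SAMSN1 (-3.60 ± 0.19), PLCE1 (-3.49 ± 0.15) and NEGR1 (-3.43 ± 0.28). The order differed in adherent cells in tumorsphere medium, where GALNT15 was at 163 and 186 CPM and SAMSN1 at 93.3 and 100, above both other cultures.

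FN1, which encodes fibronectin, took 0.742% to 0.833% of all reads in 2D and 3.04% to 3.32% in 3D, where it was the most abundant gene. Per gene length, its mean was 901 FPKM in 2D and 3730 in 3D (TMM-scaled CPM per kilobase of the deposited gene length). Next in 3D came the ferritin light chain FTL (3627 FPKM), thymosin TMSB10 (2873) and ACTB (2447), and in 2D TMSB10 (4168), ACTB (4156), GAPDH (2497) and VIM (2372). In adherent cells in tumorsphere medium FN1 was at 1572 and 1675 CPM, against 8539, 7584 and 8189 in 2D and 33589, 33061 and 33970 in 3D.

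All 10 tested fibrillar collagens rose, with a median log2 fold change of 5.67 (5.46 with COL2A1, which had no read in 2D, at its limit). These collagens build the cross-striated fibres of tendon, skin and scar. The type I chain COL1A1 rose from 388, 447 and 591 CPM to 4045, 3517 and 5437, and its partner COL1A2 from 0.073, 0.224 and 0.353 CPM to 32.8, 27.1 and 48.4. COL1A2 thus stayed far below COL1A1 per length, at a mean of 6.67 FPKM against 731 in 3D. The type III chain COL3A1 went from 3.44, 3.28 and 5.77 CPM to 2443, 2353 and 6432. Library C held the most COL1A1, COL1A2 and COL3A1. Of the type V chains COL5A2 rose by 2.00 ± 0.18 and COL5A1 by 0.83 ± 0.24, and COL11A2 rose by 5.53 ± 0.40.

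Collagens of basement membranes, the sheets under epithelia and around vessels, rose in 6 of 8 tested members, with none lower. COL4A1 (2.37 ± 0.29), COL4A2 (2.78 ± 0.24) and COL18A1 (1.95 ± 0.16) rose, while COL4A3 and COL4A4 did not pass (COL4A3 did without 2D C, at 1.44, or 3D C, at 1.16). Of 16 other collagens 11 rose and 3 fell. COL6A3 rose from 3590, 3222 and 3158 CPM to 7963, 7268 and 8618, COL28A1 fell from 4.28, 4.14 and 3.18 CPM to 0.226, 0.067 and 0.070, and COL12A1 (-0.23 ± 0.31) did not pass. Laminins, nidogens and other basement membrane proteins rose in 12 of 15 members and fell in none, with a median of 1.67. LAMC1 (1.54 ± 0.10), LAMB1 (1.67 ± 0.16) and LAMA3 (1.51 ± 0.20) rose, and LAMB3 (0.36 ± 0.18) did not pass.

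Enzymes that modify and crosslink collagen did not follow the chains. Of 18 members 5 rose, 5 fell and 8 did not pass, and the median was 0.12 (-0.09 without 3D C, in which 17 of the 18 lay above A and B). PCOLCE, which speeds the trimming of procollagen, rose from 94.1, 103 and 113 CPM to 758, 652 and 1235. The crosslinking oxidase LOXL3 fell by 2.23 ± 0.34. The hydroxylase PLOD2 (-0.03 ± 0.09), the oxidase LOX (0.45 ± 0.29) and the collagen chaperone SERPINH1 (0.43 ± 0.18) did not pass. LOX passed without 2D C (0.76), and SERPINH1 without 3D A (0.51) or 3D B (0.57).

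Proteoglycans and matricellular proteins rose in 21 of 30 members and fell in 7, with a median of 2.05. Elastin (ELN) rose from 0.073, 0.186 and 0.118 CPM to 53.8, 44.1 and 112, biglycan (BGN), a small leucine-rich proteoglycan, from 0.110, 0.075 and 0.118 CPM to 277, 268 and 431, and SPARC, which binds collagen, from 863, 819 and 903 CPM to 3081, 3056 and 4558. The groups did not overlap for any of the 3, as for 35.1% of all genes tested in this direction. THBS2 had 2 reads in 2D and 6.27, 5.68 and 8.26 CPM in 3D. Its relative THBS1, an activator of TGF-beta, went the other way, from 2422, 2285 and 3548 CPM to 794, 793 and 480. Fibulin FBLN5 (-3.33 ± 0.37) and the matricellular CCN1 (-2.69 ± 0.14) fell, and TGFBI (-0.14 ± 0.16) did not pass and stayed above 1200 FPKM in both cultures.

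**Figure D4:**
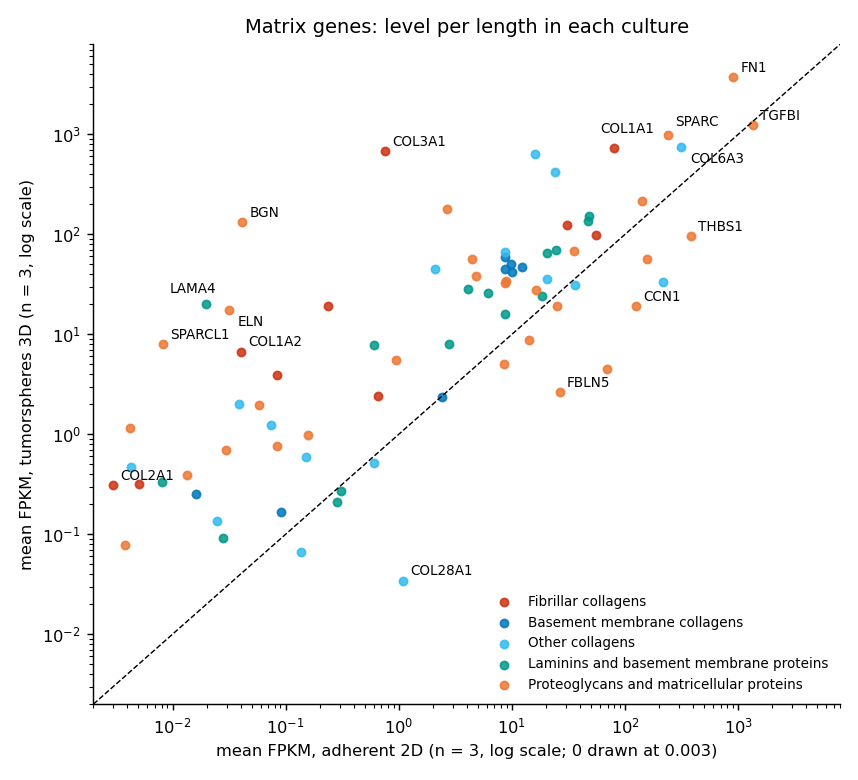
Mean FPKM of matrix genes in 2D (x axis) and 3D (y axis), both on log scales, coloured by list, with the line of equal level dashed and genes without a read drawn at 0.003. COL3A1, BGN and ELN lie far above the line, THBS1, CCN1 and FBLN5 below it, and FN1 is highest in 3D at 3730.

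Metalloproteinases and their inhibitors rose in 17 of 23 members and fell in 4. The gelatinase MMP2 rose from 470, 444 and 403 CPM to 1180, 1113 and 1806, and TIMP3 by 1.86 ± 0.22 and TIMP1 by 0.78 ± 0.20. The stromelysin MMP3 fell by 2.41 ± 0.51, and the collagenase MMP1 (0.24 ± 0.58) did not pass, with 28.8, 30.4 and 6.80 CPM in 3D. Matrix receptors of the integrin family rose in 10 of 17 members and fell in 3. The leukocyte integrin subunit ITGB2 rose from 0.183, 0.335 and 0.314 CPM to 14.0, 12.5 and 18.9, the collagen receptor ITGA11 from 6.30, 5.55 and 6.32 CPM to 246, 232 and 170, and ITGA2 by 2.03 ± 0.13. ITGA5, the fibronectin-binding subunit, fell from 1095, 1060 and 909 CPM to 296, 272 and 399 as FN1 rose, and the shared beta subunit ITGB1 did not pass (0.01 ± 0.09).

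Genes of focal adhesions and actin fibres were lower: of 30 members 14 fell and 4 rose, with a median of -0.34. ACTB fell from 7691, 7422 and 7478 CPM to 4438, 4236 and 4630, calponin CNN3 from 63.7, 64.7 and 66.3 CPM to 12.6, 14.5 and 18.3, and caveolin CAV1 by 1.26 ± 0.19. Vinculin (VCL, 0.63 ± 0.09) and smooth muscle actin ACTA2 (2.87 ± 0.30) rose. Targets of YAP and TAZ, the coactivators that respond to stretch and spreading, fell in 20 of 29 members and rose in 2. ANKRD1 went from 23.4, 22.3 and 26.9 CPM to 0.097, 0.034 and 0, and CRIM1 from 706, 663 and 764 CPM to 126, 126 and 119. In adherent cells in tumorsphere medium the focal adhesion list had medians of -0.57 and -0.55 against the 2D mean and the YAP and TAZ list -0.80 and -0.78. Against that group their medians in 3D were 0.20 and -0.05, with 12 members higher and 5 lower and with 6 higher and 11 lower, beside a background of 32.8% higher and 30.0% lower.

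Cadherins, nectins and protocadherins rose in 10 of 20 members and fell in 5. N-cadherin CDH2, a mesenchymal marker, fell from 271, 252 and 271 CPM to 99.7, 104 and 96.8, and NECTIN4, an adhesion molecule of breast and bladder carcinoma, rose from 0.110, 0.149 and 0 CPM to 7.14, 6.82 and 12.0. Junction genes moved both ways, 5 of 21 higher and 7 lower. CLDN4 rose to 1.74, 1.38 and 1.64 CPM from at most 0.0732, and CLDN7 went from 0.586, 0.373 and 0.510 CPM to no read (at least 14.6-fold lower).

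Of 17 regulators and markers of epithelial-mesenchymal transition, 10 rose (6 without 2D A) and 5 fell. PRRX1, a mesenchymal homeobox factor, rose from 0.805, 0.633 and 0.392 CPM to 15.4, 17.7 and 10.4, and the epithelial protease ST14 by 4.60 ± 0.51. SNAI2 rose by 0.60 ± 0.14, while ZEB1 (0.30 ± 0.13) and VIM (-0.18 ± 0.12) did not pass, but both did without 3D C (0.44 and -0.36). Mesenchymal and epithelial genes were thus found among the rises. Keratins and basal markers rose in 10 of 20 members and fell in 5, with a median of 1.05. The basal keratin KRT14 rose from 0.110, 0.075 and 0.157 CPM to 11.3, 9.20 and 14.6 and KRT15 from 1.83, 2.05 and 1.26 CPM to 24.7, 21.1 and 21.4. KRT16, near both on chromosome 17, had 3 reads in 2D and 10.0, 9.27 and 10.9 CPM in 3D. The simple-epithelium keratin KRT7 fell from 1514, 1625 and 1824 CPM to 167, 154 and 246, and KRT8 (-0.66 ± 0.10) and KRT18 (-0.27 ± 0.10) fell slightly, KRT18 not without 2D C (-0.21), 3D A (-0.26) or 3D B (-0.22). KRT7 was 8.75-fold higher in 2D by the ratio of means.

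Markers used for breast cancer stem cells and progenitors rose in 9 of 15 members and fell in 3, with a median of 1.00. SOX9 rose from 0.952, 0.745 and 0.785 CPM to 18.4, 18.2 and 23.4, and the hyaluronan receptor CD44 from 598, 578 and 624 CPM to 1151, 1192 and 1263. CD24, low in the CD44-high state, also rose (1.63 ± 0.61), with 29.8 CPM in C against 11.3 and 10.7 in A and B. CD24 did not pass without 3D C (0.98), 2D A (1.54) or 2D B (1.47). The aldehyde dehydrogenases split: ALDH1A3 fell from 3.95, 3.39 and 1.73 CPM to 0.065, 0.134 and 0.070, and ALDH3A1 rose from 0.146, 0.112 and 0.118 CPM to 24.5, 23.01 and 21.99. PROCR, another surface marker, did not pass (-0.09 ± 0.10). Of 41 homeobox and lineage factors 20 rose and 7 fell, and the luminal and basal factor TFAP2C rose from 9.41, 9.28 and 10.0 CPM to 52.6, 56.5 and 64.9.

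Growth factor signalling genes came next. Cells read EGF family ligands through EGFR and ERBB receptors. In 3D the ligand EREG rose from 19.9, 20.9 and 26.2 CPM to 206, 235 and 90.7, and AREG (-1.74 ± 0.37), NRG1 (-2.02 ± 0.42) and HBEGF (-0.67 ± 0.24) fell, HBEGF not without 2D A (-0.62), 3D A (-0.58) or 3D B (-0.52). Of the receptors of this family EGFR (0.23 ± 0.10), ERBB2 (-0.22 ± 0.16) and ERBB3 (0.32) did not pass. Without 3D C, however, ERBB2 was lower (-0.43), and EGFR passed under 6 alternatives, among them DESeq2 and the compared groups alone (both 0.24). The receptor inhibitors LRIG1 (3.71 ± 0.34) and LRIG3 (1.59 ± 0.09) rose. LRIG1, which promotes the degradation of EGFR, went from 23.8, 22.5 and 22.6 CPM to 287, 282 and 336. In all 8 of 15 members rose and 3 fell, with a median of 1.59 (1.26 with a member without reads in 1 group at its limit).

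Genes of feedback on ERK rose in 17 of 22 members and fell in 2. SPRY1 went from 3.00, 3.02 and 2.79 CPM to 38.9, 42.4 and 47.7, and PHLDA1 from 49.9, 55.6 and 37.8 CPM to 391, 417 and 350. Immediate early genes, which growth factors switch on within minutes, rose in 10 of 22 members and fell in 6. EGR1 rose from 12.0, 13.2 and 12.1 CPM to 112, 115 and 238, FOS from 0.805, 1.01 and 1.18 CPM to 13.0, 13.6 and 28.5, and EGR3 from at most 0.157 CPM to 8.82, 9.27 and 28.8. Library C held 2.10, 2.14 and 3.18 times the mean of A and B for EGR1, FOS and EGR3. FOSL1 (-1.47 ± 0.30), MYC (-0.90 ± 0.18) and NR4A1 (-1.63 ± 0.15) fell. MYC stood at 427, 464 and 369 CPM in 2D, 215, 197 and 264 in 3D, and 1079 and 1144 in adherent cells in tumorsphere medium.

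Receptors and ligands of the FGF, PDGF and VEGF families rose in 16 of 30 members and fell in 7. The PDGF receptors are mesenchymal: PDGFRA rose from 32.9, 31.8 and 22.2 CPM to 645, 684 and 826, and PDGFRB from 8.75, 8.61 and 11.1 CPM to 592, 548 and 792. In adherent cells in tumorsphere medium PDGFRA was at 112 and 100 CPM and PDGFRB at 8.52 and 10.2. Both are in the list of fibroblast and pericyte markers, of whose 8 members 5 rose and 1 fell. The sum of that list was 219 to 231 CPM in 2D and 1426 to 1939 in 3D, while decorin DCN fell (-0.70 ± 0.15) and RGS5 did not pass. Whether other cells contributed was not tested. The receptor tyrosine kinases MET (312, 287 and 343 CPM in 2D and 74.8, 74.4 and 65.9 in 3D) and AXL (-1.71 ± 0.18) fell, as did the ligand FGF2 (-1.41 ± 0.12). VEGFA, the main angiogenic ligand, rose from 82.9, 88.6 and 77.1 CPM to 367, 372 and 285, and PGF by 4.78 ± 0.43.

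In the IGF axis 8 of 15 members rose and 3 fell. Some of the binding proteins, which hold IGF outside the cell, gave the largest rises. IGFBP6 fell by 0.59 (adjusted p = 0.046 with edgeR), and IGFBP4 did not pass (0.07). Beside IGFBP3, IGFBP7 went from 25.3, 25.5 and 30.8 CPM to 443, 447 and 363, IGFBP2 from 0.183, 0.373 and 0.392 CPM to 20.7, 19.1 and 21.7, and IGFBP5 from 0.110, 0.186 and 0.157 CPM to 13.1, 15.9 and 45.3. The receptor IGF1R rose by 0.50 ± 0.11, and its substrate IRS2 fell by 1.75 ± 0.19.

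Notch receptors meet ligands on neighbouring cells and release an intracellular part that switches on HES and HEY genes. Of 19 members 11 rose and 3 fell, with a median of 0.91. The receptor NOTCH3 rose from 0.732, 1.27 and 3.26 CPM to 277, 252 and 387, or 174-fold by the ratio of means. NOTCH1 rose by 0.91 ± 0.20, and NOTCH2 (0.02 ± 0.09) did not pass. Among ligands JAG1 rose from 77.3, 72.5 and 80.4 CPM to 205, 205 and 147, and JAG2 (2.55 ± 0.30) and DLL1 (3.94 ± 0.46) rose from low levels. The targets were uneven. HES1 rose from 4.65, 5.66 and 5.57 CPM to 61.8, 62.4 and 77.02, HEYL had 1 read in 2D and 10.9, 10.7 and 17.7 CPM in 3D, NRARP fell (-1.20 ± 0.19) and HEY1 (0.19 ± 0.17) did not pass.

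For Wnt, whose ligands act through Frizzled receptors and beta-catenin, 18 of 33 members rose and 4 fell (2 without 2D C), with a median of 0.77. FZD8 rose from 2.09, 3.09 and 2.67 CPM to 65.1, 61.1 and 34.1, and the ligands WNT7B (1.76 ± 0.16) and WNT9A (2.38 ± 0.21) rose. WNT10A and the Wnt inhibitor SFRP1 had no read in 2D and at most 3.94 CPM in 3D (at least 62.7-fold and 84.7-fold higher). Feedback genes moved both ways: NKD2 fell by 4.74 ± 0.45, while NKD1 (1.87) and RNF43 (1.09) rose. AXIN2 (0.28 ± 0.22) and ZNRF3 (0.08) did not pass, and the factor LEF1 rose by 0.77 ± 0.23. Of BMP genes 10 of 22 rose and 6 fell. BMP7 had 1 read in 2D and 10.0, 8.33 and 5.26 CPM in 3D, and BMP4 rose from 9.44, 9.35 and 14.8 CPM to 34.6, 35.3 and 27.4. BMP2 rose to 22.6, 21.7 and 14.6 CPM from at most 0.659, and was at 13.6 and 16.5 in adherent cells in tumorsphere medium. The antagonists NOG (-1.79 ± 0.22) and FSTL3 (-2.78 ± 0.17) fell, and so did the target genes ID1 (-1.42 ± 0.42) and ID3 (-2.46 ± 0.37). SMAD7, an inhibitor of the pathway and itself a target, rose (1.79 ± 0.10).

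In the TGF-beta list 11 of 19 members rose and 4 fell. Latency proteins that store the ligand in matrix rose (LTBP1, 1.64 ± 0.12), TGFB1 rose by 1.05 ± 0.16 and TGFB2 fell by 1.27 ± 0.31. PLAU, an activator of plasminogen, rose from 29.9, 26.2 and 25.2 CPM to 409, 415 and 362, a change far above the spread between libraries. Among Hedgehog genes 6 of 13 rose and 3 fell. With the fall of HHIP, the coreceptor BOC (4.00 ± 0.25) and the factor GLI2 (3.00 ± 0.28) rose, and the receptor and target PTCH1 did not pass (-0.05 ± 0.33).

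Guidance molecules of axons, which also steer epithelial and endothelial cells, rose in 20 of 32 members and fell in 7, with a median of 0.88. SEMA3A rose from 0.622, 0.671 and 0.510 CPM to 119, 129 and 145 and its receptor part PLXNA1 from 96.2, 110 and 112 CPM to 899, 802 and 642. The coreceptors went apart: NRP1 rose by 0.68 ± 0.09, and NRP2 fell from 48.3, 48.4 and 34.3 CPM to 5.81, 7.02 and 6.27. The netrin receptor UNC5B rose from 11.2, 12.8 and 15.4 CPM to 342, 321 and 438, and its ligand NTN1 rose from at most 0.0785 CPM to 0.775, 0.873 and 0.871.

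Interferon-stimulated genes carry out antiviral defence and are switched on by STAT2, IRF9 and their partners at a promoter element called ISRE. Of 36 members 28 rose and none fell, with a median of 1.36. Many of their promoters hold the core of that element, spelled GAAA, any 2 bases and GAAA, and searched on both strands in the 250 bases before the RefSeq start (GRCh38.p14). It was found in 20 of the 29 tested members with a promoter in the table (69.0%), in 6 of 19 HLA and antigen processing genes (31.6%), and in 3.07% of all 27305 promoters. Of the 20 interferon-stimulated genes with the core 15 rose and 5 did not pass, and of the 9 without it 7 rose and 2 did not pass. A match describes letters and not binding. The 5 promoters shown next, with the core in capitals on whichever strand it lies, belong to 4 genes that rose and to IFIT1, which holds the core at 2 places and did not pass.
IFI44L, chr1:78620198-78620447, plus strand: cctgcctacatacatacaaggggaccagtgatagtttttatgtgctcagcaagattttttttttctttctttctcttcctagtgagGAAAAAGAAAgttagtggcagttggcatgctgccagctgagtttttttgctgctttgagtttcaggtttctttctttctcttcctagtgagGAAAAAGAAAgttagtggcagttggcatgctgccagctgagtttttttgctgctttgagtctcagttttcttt
EPSTI1, chr13:42992242-42992491, minus strand: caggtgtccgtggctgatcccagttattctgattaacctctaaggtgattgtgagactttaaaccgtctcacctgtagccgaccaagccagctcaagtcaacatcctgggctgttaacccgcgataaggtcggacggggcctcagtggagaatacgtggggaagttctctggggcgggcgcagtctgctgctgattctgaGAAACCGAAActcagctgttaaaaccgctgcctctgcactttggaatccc
IFI27, chr14:94110486-94110735, plus strand: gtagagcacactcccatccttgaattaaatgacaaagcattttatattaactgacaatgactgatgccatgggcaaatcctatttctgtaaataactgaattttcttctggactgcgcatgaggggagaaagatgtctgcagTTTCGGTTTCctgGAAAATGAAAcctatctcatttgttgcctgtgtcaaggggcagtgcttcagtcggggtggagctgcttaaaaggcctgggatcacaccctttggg
B2M, chr15:44711267-44711516, plus strand: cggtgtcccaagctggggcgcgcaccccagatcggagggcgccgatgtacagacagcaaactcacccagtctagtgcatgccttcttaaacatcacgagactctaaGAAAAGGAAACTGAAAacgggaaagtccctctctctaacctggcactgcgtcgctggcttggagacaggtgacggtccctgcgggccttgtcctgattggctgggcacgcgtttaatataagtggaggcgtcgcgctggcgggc
IFIT1, chr10:89392373-89392622, plus strand: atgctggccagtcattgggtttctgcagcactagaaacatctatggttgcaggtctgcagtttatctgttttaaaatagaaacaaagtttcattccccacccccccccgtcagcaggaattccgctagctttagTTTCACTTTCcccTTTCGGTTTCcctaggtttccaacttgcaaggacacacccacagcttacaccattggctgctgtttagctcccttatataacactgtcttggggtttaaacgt

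IFI44L, whose promoter holds the core at 2 places, rose from 7.03, 8.01 and 4.28 CPM to 53.2, 57.7 and 78.6. EPSTI1 rose from 1.02, 0.932 and 1.49 CPM to 5.46, 5.54 and 10.7, and IFI27 from 17.5, 21.1 and 25.2 CPM to 66.0, 59.0 and 110. B2M, the light chain of class I HLA whose 2 matches overlap, rose from 893, 910 and 859 CPM to 1799, 1881 and 2527. IFIT1, with 7.76, 7.60 and 7.57 CPM in 2D and 12.1, 12.1 and 19.1 in 3D, had no overlap between the groups but an adjusted p of 0.22 with edgeR. It passed when the compared groups were fitted alone (0.93). ISG15, a ubiquitin-like protein that interferon induces strongly, did not pass either (0.45 ± 0.37). TRIM22 (4.23 ± 0.37) and GBP2 (3.06 ± 0.26) rose, and the 8 genes named here were highest in library C. Without library C, 24 of the 36 rose and none fell, and without 3D B 1 fell.

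Sensors and regulators of interferon rose in 19 of 26 members and fell in 1, with a median of 1.04. The factor IRF9 rose from 5.97, 7.04 and 7.89 CPM to 23.4, 23.01 and 34.4, its partner STAT2 (1.27 ± 0.27) rose, and so did the DNA-sensing adaptor STING1 (2.02 ± 0.34) and IRF1 (1.53 ± 0.20). The kinase JAK1 fell (-0.45 ± 0.12). Interferon genes themselves were near the limit of detection, IFNL1 with at most 0.139 CPM. IFNL1 is counted among the rises (4.19, adjusted p = 0.043 with edgeR). It did not pass without 3D C (3.24), with DESeq2 (3.31) or without 2D A, 2D B or 2D C (4.20 each). HLA and antigen processing genes rose in 22 of 25 members and fell in 1, TAP2 (-0.52 ± 0.11). HLA-B rose from 136, 151 and 166 CPM to 619, 577 and 1071. Class II genes, usual in professional antigen-presenting cells, appeared at low levels: HLA-DRA had no read in 2D and 1.29, 0.806 and 1.71 CPM in 3D (at least 33.7-fold higher), their activator CIITA had 2 reads and 2.68, 2.32 and 1.67 CPM, and the invariant chain CD74 4 reads and 4.13, 3.02 and 9.62 CPM. CTSS, a protease that trims the invariant chain, rose from 0.915, 1.16 and 0.706 CPM to 20.5, 23.3 and 20.4.

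Complement and coagulation genes rose in 20 of 31 members and fell in 5, with a median of 1.01. The 2 proteases of the first component, C1R and C1S, lie side by side on chromosome 12. C1R rose from 6.00, 6.00 and 5.26 CPM to 326, 299 and 747, and C1S from 2.23, 2.50 and 1.84 CPM to 201, 199 and 348. The central component C3 rose from 66.1, 66.1 and 122 CPM to 927, 893 and 2240. Library C held 2.46 times the mean C3 of A and B. The near-identical copies C4A and C4B share reads and are given only together with that doubt, at 144, 135 and 549 CPM and at 528, 477 and 1968 CPM in 3D, against under 4 in 2D. TNXB and CYP21A2, which overlap at their ends beside C4B, rose as well (4.55 ± 0.27 and 6.95 ± 0.69), and reads across these neighbours could not be separated. The fluid-phase inhibitor CFI rose from at most 0.224 CPM to 19.8, 20.8 and 50.5. The membrane inhibitor CD55 fell from 80.0, 79.8 and 95.3 CPM to 31.1, 36.0 and 28.6.

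Of 31 cytokines and chemokines 23 rose and 2 fell, with a median of 2.27. CXCL12 rose from at most 0.110 CPM to 4.68, 4.70 and 14.9, and CXCL10, an interferon-induced chemokine, from at most 0.183 CPM to 7.78, 10.3 and 8.47. IL18 fell from 81.4, 82.9 and 96.0 CPM to 19.1, 19.5 and 24.5, and CCL20 from 2.53, 2.50 and 2.83 CPM to 1.20, 1.31 and 1.01. Adherent cells in tumorsphere medium held more of several of these than the spheres did. CXCL8 was at 19.9, 21.5 and 13.3 CPM in 2D, 95.7, 116 and 53.7 in 3D and 256 and 305 in that group, and IL6 at 11.2, 10.9 and 7.70 in 3D and 38.2 and 38.6 there. Against that group 13 of the list were higher and 12 lower in 3D. Among S100 and related proteins 10 of 21 rose and 4 fell, with S100A8 from at most 0.235 CPM to 20.8, 20.8 and 22.3.

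Genes of cell division fell: 32 of 32 of DNA replication and G1/S and 32 of 32 of mitosis, with medians of -1.64 and -1.63. TK1, which salvages thymidine, fell from 147, 159 and 183 CPM to 42.3, 37.7 and 26.8, and RRM2, a subunit of ribonucleotide reductase, from 481, 476 and 538 CPM to 108, 120 and 55.9. The proliferation antigen MKI67 fell from 545, 491 and 581 CPM to 282, 281 and 65.3, and CENPE from 83.9, 84.5 and 86.8 CPM to 60.8, 66.0 and 22.3. CENPE lost its call when the compared groups were fitted alone (-0.76). Library C was below A and B for all 64 genes. Without C all 64 were still lower, with medians of -1.41 and -1.42. Against adherent cells in tumorsphere medium 31 and 29 of the lists were lower in 3D and none higher, and MKI67 did not pass there (-0.55, adjusted p = 0.22 with edgeR). Fewer dividing cells and less RNA per dividing cell cannot be told apart in these bulk libraries.

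Regulators of the cycle and of quiescence moved both ways, 9 of 24 higher and 9 lower. The CDK inhibitor CDKN1B rose from 20.5, 22.8 and 24.9 CPM to 40.4, 40.5 and 44.4. The kinase CDK6 (-1.16 ± 0.13) and the retinoblastoma gene RB1 (-0.98 ± 0.08) fell, as did KLF9 from 136, 131 and 122 CPM to 18.8, 20.6 and 25.2. Among apoptosis regulators 12 of 25 rose and 4 fell. The pro-death BH3-only genes BMF (from 11.7, 12.7 and 15.1 CPM to 65.3, 58.5 and 129) and BCL2L11 (1.88 ± 0.19) rose, and the survival genes BCL2L1 (-1.23 ± 0.09) and BIRC5 (-1.73 ± 0.17) fell.

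The machinery of protein synthesis fell with division. Ribosome biogenesis genes fell in 25 of 26 members, mitochondrial ribosomal proteins in 30 of 32 with 1 higher, and aminoacyl-tRNA synthetases in 17 of 20, with medians of -0.82, -0.74 and -0.67. The rRNA methyltransferase FBL fell from 244, 231 and 236 CPM to 101, 98.8 and 103, and the phenylalanine synthetase subunit FARSB from 207, 202 and 191 CPM to 91.6, 92.6 and 69.6. MRPS6 rose (0.53 ± 0.12), and the synthetase WARS1, which interferon gamma induces, did not pass (0.01 ± 0.11). Cytosolic ribosomal proteins changed less, with 15 of 41 lower, none higher and a median of -0.20. That count depended on library C, which lay above A and B for all 41: without it 32 fell and the median was -0.39, while without A or B 7 and 6 fell.

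Subunits of the proteasome fell in 32 of 34 members, with a median of -0.67. The 2 that rose, PSME1 (0.50 ± 0.12) and PSME2 (0.30 ± 0.09), form the activator that interferon gamma induces. PSMD2 fell from 491, 461 and 497 CPM to 212, 205 and 194 and PSMD14 from 182, 172 and 170 CPM to 90.6, 98.8 and 70.4. Heat shock chaperones fell in 17 of 25 members and rose in 4. The mitochondrial chaperone HSPD1 fell from 966, 900 and 893 CPM to 429, 453 and 383, and STIP1 by 1.05 ± 0.15. Lysosome and autophagy genes rose in 26 of 32 members and fell in 2 (1 without any single library other than 2D B), with a median of 0.86. LAMP2 rose from 295, 295 and 285 CPM to 569, 610 and 593 and the sphingolipid activator PSAP from 1024, 1010 and 961 CPM to 2539, 2406 and 4369. The alpha-galactosidase GLA fell slightly (-0.39 ± 0.12), but not without 3D C (-0.26).

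**Figure D5:**
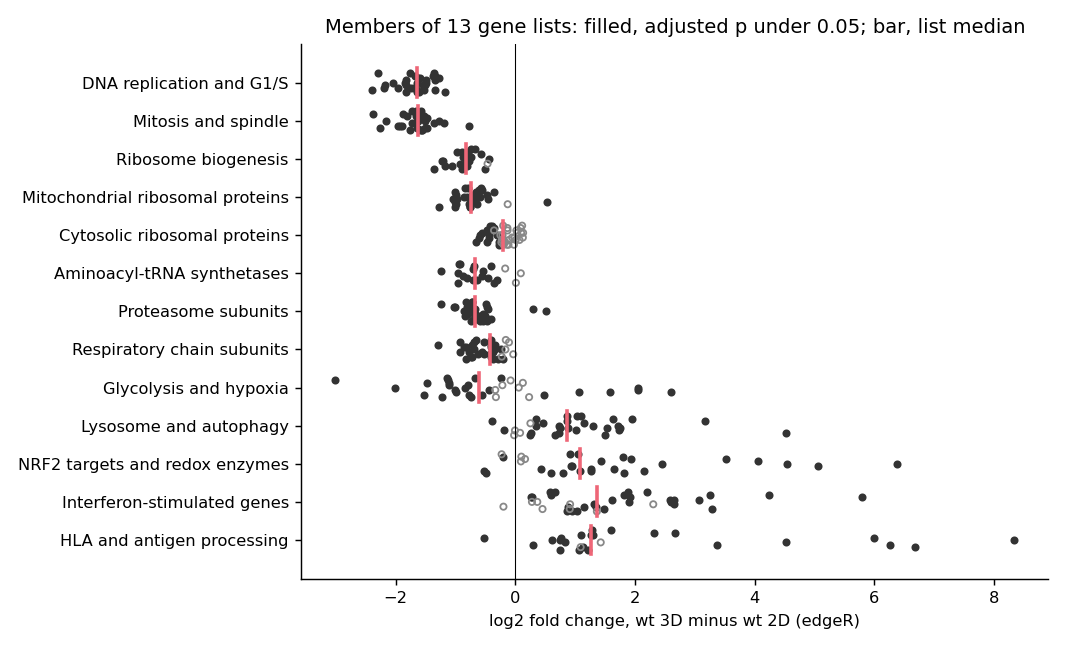
Log2 fold changes of 3D against 2D for the tested members of 13 gene lists, filled where the adjusted p was under 0.05, with the list median as a bar. Both division lists lie wholly below 0 around medians of -1.64 and -1.63, cytosolic ribosomal proteins cluster near 0 (-0.20), and lysosome, redox, interferon and HLA lists have medians between 0.86 and 1.36.

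Respiratory chain subunits fell in 30 of 35 members and rose in none, with a median of -0.43, led by cytochrome c (CYCS, from 266, 251 and 248 CPM to 112, 118 and 83.1). Glycolysis and hypoxia genes fell in 19 of 32 members and rose in 6. LDHA, which makes lactate, fell from 2262, 2120 and 2305 CPM to 1006, 1079 and 957, and PDK1 by 1.52 ± 0.09. The hypoxia marker CA9 fell from 85.2, 85.8 and 79.4 CPM to 2.36, 1.61 and 27.3, a fall that was far smaller in C. The regulatory kinase PFKFB3 rose from 41.5, 37.2 and 39.0 CPM to 247, 244 and 220, and the glucose transporters SLC2A1 (0.49 ± 0.12) and SLC2A3 (1.06 ± 0.23) rose.

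Redox enzymes and targets of NRF2 rose in 22 of 29 members and fell in 3, with a median of 1.08. AKR1C3, an aldo-keto reductase of steroids, rose from 57.2, 60.7 and 39.3 CPM to 675, 705 and 431, AKR1B10 from 0.695, 0.969 and 0.432 CPM to 30.5, 32.1 and 8.12, and the cystine transporter SLC7A11 from 115, 108 and 130 CPM to 714, 787 and 418. In these 3 library C was lowest of the spheres and above all 2D libraries. TXNRD1 fell (-0.52 ± 0.15). Enzymes of retinoids, aldehydes and xenobiotics rose in 17 of 28 members and fell in 5. AHRR and CYP1B1, both induced through the aryl hydrocarbon receptor, rose from 13.0, 15.3 and 17.9 CPM to 222, 203 and 259 and from 0.805, 0.820 and 1.10 CPM to 26.1, 25.7 and 41.0, and CYP1A1 rose by 1.15 ± 0.32 with library C (2.16 CPM) near the 2D level. RARRES2, which encodes chemerin, had 3 reads in 2D and 4.62, 5.37 and 14.5 CPM in 3D.

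Lipid genes split. Apolipoproteins and lipid handling rose in 11 of 26 members and fell in 4. APOE, the carrier of cholesterol, rose from 2.78, 3.69 and 4.28 CPM to 1071, 908 and 2618, its neighbour APOC1 from 2.96, 3.54 and 3.53 CPM to 58.8, 52.3 and 174, and the fatty acid transporter CD36 from 0.293, 0.559 and 0.353 CPM to 20.0, 22.3 and 29.2. Cholesterol synthesis rose in 5 of 24 members and fell in 1, a share below the background. These counts varied most of all lists: 7 rose without 3D C, 1 or 2 without any other single library, and 13 when the compared groups were fitted alone. HMGCS1, with 86.7, 84.0 and 121 CPM in 2D and 358, 388 and 153 in 3D, passed (adjusted p = 0.026 with edgeR), but not without 2D A, 2D B, 3D A or 3D B (log2 fold changes of 1.55, 1.53, 1.48 and 1.40). Adherent cells in tumorsphere medium held 370 and 439 CPM of HMGCS1. Fatty acid genes rose in 8 of 29 (5 without 2D C or 3D C) and fell in 8. The carnitine transferase CPT1A rose by 1.58 ± 0.21 and PPARG fell by 1.23 ± 0.09.

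Metallothioneins, small proteins that hold zinc and copper, were lower in 3D: of 11 members of the list with zinc transporters 7 fell and 1 rose (none without 2D A, 2D B or 3D C), with a median of -1.92. Metal response elements with the core TGCNCNC, again on both strands of 250 bases, were found in 4 of the 6 members with a promoter in the table. Of those 4, 3 fell and the zinc exporter SLC30A1 did not pass (-0.007). The core was found in 48.4% of all promoters and in 55.3% of those of tested genes, so the presence of 1 core is common. Promoters of 2 members that fell are shown, with 7 and 4 matches in capitals.
MT2A, chr16:56608334-56608583, plus strand: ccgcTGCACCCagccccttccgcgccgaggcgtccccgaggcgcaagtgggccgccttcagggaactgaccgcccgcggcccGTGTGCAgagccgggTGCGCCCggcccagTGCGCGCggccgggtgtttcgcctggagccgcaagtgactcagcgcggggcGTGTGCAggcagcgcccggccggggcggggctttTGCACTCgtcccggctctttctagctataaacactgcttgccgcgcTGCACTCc
MT1X, chr16:56682220-56682469, plus strand: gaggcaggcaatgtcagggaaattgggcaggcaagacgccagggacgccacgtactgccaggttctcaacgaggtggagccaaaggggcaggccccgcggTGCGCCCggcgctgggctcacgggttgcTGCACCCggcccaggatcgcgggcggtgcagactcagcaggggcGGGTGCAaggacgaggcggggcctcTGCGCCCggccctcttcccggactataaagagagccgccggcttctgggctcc

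MT2A fell from 942, 1009 and 974 CPM to 237, 214 and 321, and stood at 3488 and 3520 in adherent cells in tumorsphere medium. MT1X, at 87.4, 84.4 and 78.2 CPM in 2D and 18.7, 17.4 and 29.7 in 3D, was at 381 and 400 there. Both were thus lowest in spheres and highest in attached cells with the same medium. MT1E fell (-2.10 ± 0.26) and MT1F rose from low levels (1.20 ± 0.50), a call that was lost without 2D A (1.04), 2D B (1.01) or 3D C (0.80).

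Enzymes of NAD and methyl donor metabolism, the pathway of NNMT, passed in 16 of 32 members, 6 higher and 10 lower. NNMT itself, with 120, 128 and 102 CPM in 2D and 85.7, 79.5 and 130 in 3D, did not pass (adjusted p = 0.21 with edgeR), although without 3D C it was lower by the same test (-0.50). On the kynurenine route to NAD, KYNU rose from 11.4, 9.95 and 6.95 CPM to 107, 114 and 132 and QPRT from 0.110, 0.149 and 0.235 CPM to 11.1, 10.8 and 10.0, beside the rise of TDO2 at the start of that route. AHCY, which clears the product of methylation, fell from 349, 358 and 352 CPM to 191, 176 and 185, and PARP1, a consumer of NAD, fell by 0.92 ± 0.10. Of histone and DNA methylation enzymes 9 of 27 rose and 9 fell: the division-linked EZH2 (-1.45 ± 0.15) and DNMT1 (-1.09 ± 0.16) fell and DNMT3A rose (1.46 ± 0.17).

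Clock genes rose in 9 of 18 members and fell in 4. BHLHE41 rose from 5.75, 4.69 and 5.77 CPM to 29.5, 33.02 and 36.3 and NPAS2 from 5.64, 6.52 and 7.57 CPM to 72.6, 73.9 and 47.3. PER2 rose by 2.14 ± 0.20, while PER1 (-1.02 ± 0.21) and BMAL2 (-1.59 ± 0.14) fell. Hours of harvest are not given in the sources used here. Among 23 long noncoding RNAs 12 rose and 6 fell. The imprinted H19 rose from 1.28, 1.86 and 1.88 CPM to 41.2, 44.1 and 79.9, and MEG3 from 0.878, 1.56 and 1.69 CPM to 27.6, 27.2 and 3.10, near the 2D level in C. UCA1 had 0.439, 0.671 and 0.785 CPM in 2D and no read in 3D (at least 18.8-fold lower).

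Targets of the glucocorticoid receptor, which hydrocortisone in the 2D medium activates, fell in 12 of 21 members and rose in 3, with a median of -1.02. DUSP1, a phosphatase that restrains MAP kinases, fell from 104, 115 and 119 CPM to 18.7, 15.7 and 25.02. KLF9, MT2A and TFCP2L1, described above, belong to this list too. Adherent cells in tumorsphere medium held 155 and 174 CPM of DUSP1, and against them 12 of the list were lower and 3 higher in 3D. The list medians against the 2D mean were -0.155 and -0.029 in those cells. In 3D A, B and C they were -1.227, -1.408 and -0.623. The part of hydrocortisone in the fall was not tested.

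Of the ATF4 and amino acid genes 11 of 29 rose and 11 fell (7 without 3D A). Asparagine synthetase ASNS fell from 55.9, 55.1 and 54.5 CPM to 14.8, 17.8 and 13.3. Genes of the unfolded protein response fell in 14 of 26 members and rose in 5, with the oxidase ERO1A lower (-0.86 ± 0.08) and the chaperone partner DNAJB9 higher (1.26 ± 0.20). Secretory transport genes rose in 5 of 16 members and fell in 3. Ion channels and transporters rose in 13 of 29 members and fell in 10. The potassium channel KCNN4 rose from 4.50, 5.96 and 5.06 CPM to 46.6, 42.8 and 41.8, and the sodium channel subunit SCNN1A fell from 17.8, 17.8 and 21.5 CPM to 2.23, 2.08 and 2.37. Cancer-testis antigens rose in 7 of 17 members and fell in 8.

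Across all genes, 3D against adherent cells in tumorsphere medium gave 5358 genes higher (32.8%) and 4896 lower (30.0%) with edgeR, with the same 3D libraries and n = 2. Lists with like medians against both adherent groups included fibrillar collagens (5.67 against 2D and 5.28 against the medium group), mitosis (-1.63 and -1.28), ribosome biogenesis (-0.82 and -1.01) and Notch (0.91 and 0.84). Lists whose medians lay further apart included metallothioneins (-1.92 and -3.77), cytokines (2.27 and 0.21), cholesterol synthesis (0.49 and -0.39), NRF2 targets (1.08 and 0.47), YAP and TAZ targets (-0.80 and -0.05) and BMP genes (0.43 and 1.43). These pairs of values share the 3D libraries and were not tested against each other.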

How the data were processed

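The authors deposited gene-level read counts for all libraries, in 1 table with gene lengths. Libraries were TruSeq stranded, per the labels' protocols, and the submitters' processing notes name STAR and hg38; the counting tool and strand setting are not given in the sources used here, so overlapping and antisense genes are uncertain. Gene IDs were matched to RefSeq symbols (27740 of 27864), and the 39 ribosomal RNA genes stayed in library sizes and tests. Counts were filtered with filterByExpr, scaled by TMM and fitted with edgeR 4.0.16 (R 4.3.3, quasi-likelihood, 7 groups, 20 libraries, 13 residual degrees of freedom), with Benjamini-Hochberg adjustment and a threshold of 0.05. Genes past it "rose" or "fell". FPKM were computed here. Data were simulated for this comparison (15730 genes) with equal means in all groups, except for 50 genes changed at each size. There 42% of changes of 0.5 and 88% of changes of 1 on the log2 scale were recovered, with 3.51% false calls. In the real comparison far more genes passed (63.7%), and the simulation did not set library 3D C apart. These shares may therefore differ for the real data. Named genes were drawn from the 25 largest changes each way, the 15 highest FPKM and members of gene lists (up to 6 by adjusted p, and any needed to account for a list); 70 lists were counted, and not every gene the rule allows is named. Members and lists were chosen with earlier results of these data known. Alternatives were other scaling, filters, DESeq2 1.42.0, the compared groups alone, a replicate block and leaving out libraries. Some genes and lists are not reported here.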

Additional observations from a re-analysis of the deposited data

How the results depend on the processing

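The counts of genes higher and lower in 3D kept within 1.5 times of 5433 and 4965 under each alternative run: 5562 and 4799 with DESeq2's size factors in edgeR, 5573 and 4851 with DESeq2, 4984 and 4683 with the stricter filter, 4942 and 4652 with the compared groups alone, and 4946 to 5236 and 4588 to 4909 when 1 library was left out. Without the 3 libraries of the series that stand apart, an alternative chosen after seeing the data, they were 5831 and 5564. The replicate letters did not pair the samples (correlations of deviations of -0.0069, 0.00069 and 0.076), and with a replicate block the counts were 5425 and 4974. Of the list counts under alternatives 2177 stayed within 1.5 times and 63 did not, mostly counts of 5 or fewer, cholesterol synthesis and cytosolic ribosomal proteins. With 3 libraries a group, changes of 0.5 on the log2 scale were recovered in 42% of simulated cases, where far fewer genes changed than in the real comparison.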
